A study of Mus musculus with 12 samples.

Results

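Marker genes of non-epithelial cells, 36 in number, were followed through RNA sequencing of mouse hair follicle stem cells (HFSC) with and without the transcription factor Foxc1. The genes were taken by name, not by a cutoff on their values, from 37931 gene names shared by both count tables, and all 36 were found in both. They were chosen with earlier results of these data known. The set comprised 12 immune, 9 endothelial, 8 fibroblast, 4 muscle and 2 glial genes and 1 red cell gene. The purpose of following these genes was to see how much RNA of cells other than keratinocytes the sorted samples held, and whether it differed between groups. Cells came from dissociated back skin and were sorted as positive for H2BGFP, CD34 and CD49f and negative for Sca-1. All mice carried K14-H2BGFP, a fluorescent histone under the promoter of keratin 14, which is active in basal keratinocytes, and Foxc1 fl/fl, a floxed Foxc1. The knockout (KO) groups carried K14Cre as well, so recombination was driven in keratin 14-expressing cells, and the controls, called wild type (WT), lacked Cre. The 12 libraries formed 4 groups. In anagen, the growth phase, KO replicates 1 and 2 (titled P29 and P31) were set against WT replicates 1 to 3 (titled P29, P30 and P31). In early telogen, the resting phase, 4 KO libraries numbered 1, 2, 3 and 5 were set against 3 WT libraries numbered 1, 3 and 4, all with an age label of postnatal day 47. Anagen WT replicate 3 was titled P31 but had an age label of 43 days, and early telogen KO replicate 5 was titled P43. By their sex labels, anagen KO held females alone and anagen WT held 1 female and 2 males. In early telogen, KO replicate 2 and WT replicate 4 were labelled male and all other libraries female. Nothing in the labels ties each replicate to its own animal, and p-values here measure the spread between samples, which may be technical.

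Skin holds many cells beside keratinocytes. Immune cells such as T cells, macrophages and Langerhans cells sit in and under the epithelium, capillaries and fibroblasts lie close to the follicle, the arrector pili muscle attaches at the bulge, and nerve endings with Schwann cells surround it. Genes whose RNA is largely restricted to one of these cell types are used to judge the purity of a sort, although several of them, such as Vim or Mbp, are also transcribed elsewhere. In bulk RNA, fewer cells of a type and less RNA per cell cannot be told apart.

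Depth was 29025553 to 54482469 counts over genes in anagen and 2662083 (KO replicate 5) to 11821916 in early telogen. Levels are given as CPM, a gene's counts divided by the library's counts over genes and multiplied by 1000000, and libraries are listed in order of replicate number. Log2 fold changes are given with ± SE from the model. In early telogen KO replicate 5, 3 counts correspond to 1.13 CPM, against 0.254 to 0.489 CPM in the other early telogen libraries, so low levels are least certain there. Foxc1 was at 0.206 to 3.11 CPM in the 6 KO libraries and 34.6 to 116 CPM in the 6 WT libraries. Keratinocyte genes dominated, with Krt14 at 6231 to 9574 CPM and Krt5 at 8151 to 15477 CPM. Of the genes used in the gate, Ly6a, which encodes Sca-1, was at 2.13 to 9.02 CPM in 11 libraries and at 56.0 CPM in early telogen KO replicate 2. Itga6, which encodes CD49f, was at 579 to 880 CPM in all 12. Cd34, which encodes the other surface protein of the gate, was at 277 and 230 CPM in anagen KO against 352 to 757 CPM in anagen WT, and at 349 to 417 CPM in early telogen KO against 647 to 845 CPM in early telogen WT. Cd34 fell in early telogen KO by 1.199 on the log2 scale (SE 0.21, edgeR adjusted p = 0.0212), and in anagen the log2 fold change was -1.22 ± 0.35 (edgeR adjusted p = 0.314). The part of this difference in the levels of the marker genes was not tested. Among the early telogen libraries, 2 stood apart: KO replicate 2 was the highest of the 7 for 14 of the 36 marker genes, 6 of them immune, 4 endothelial and 4 fibroblast, and WT replicate 3 was the lowest for 21 of the 36. The medians over lists and the call between genotypes are therefore given with and without them.

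The 36 genes together held 0.0239% (early telogen WT replicate 3) to 0.0862% (early telogen KO replicate 2) of a library's counts, and 13 basal and bulge keratinocyte genes held 3.59% to 4.86%. Per kilobase of exon, which allows genes to be compared, Cd74 had the highest mean level of the 36 genes, 35.4 CPM per kilobase, and mean Krt14 was 131 times as high. Tagln followed at 26.4, Fbln1 at 18.7, Acta2 at 18.3, Arhgdib at 12.3 and Vim at 12.1 CPM per kilobase. Ptprc, the phosphatase CD45 of all nucleated blood cells, had the lowest mean level, 0.0969 CPM per kilobase. Of the 36 genes, 8 stayed above 1 CPM per kilobase in all 12 libraries and 9 stayed below it in all. The number of the 36 genes with at least 1 count ranged from 29 in early telogen WT replicate 3 to 36 in each anagen WT library.

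**Figure D1:**
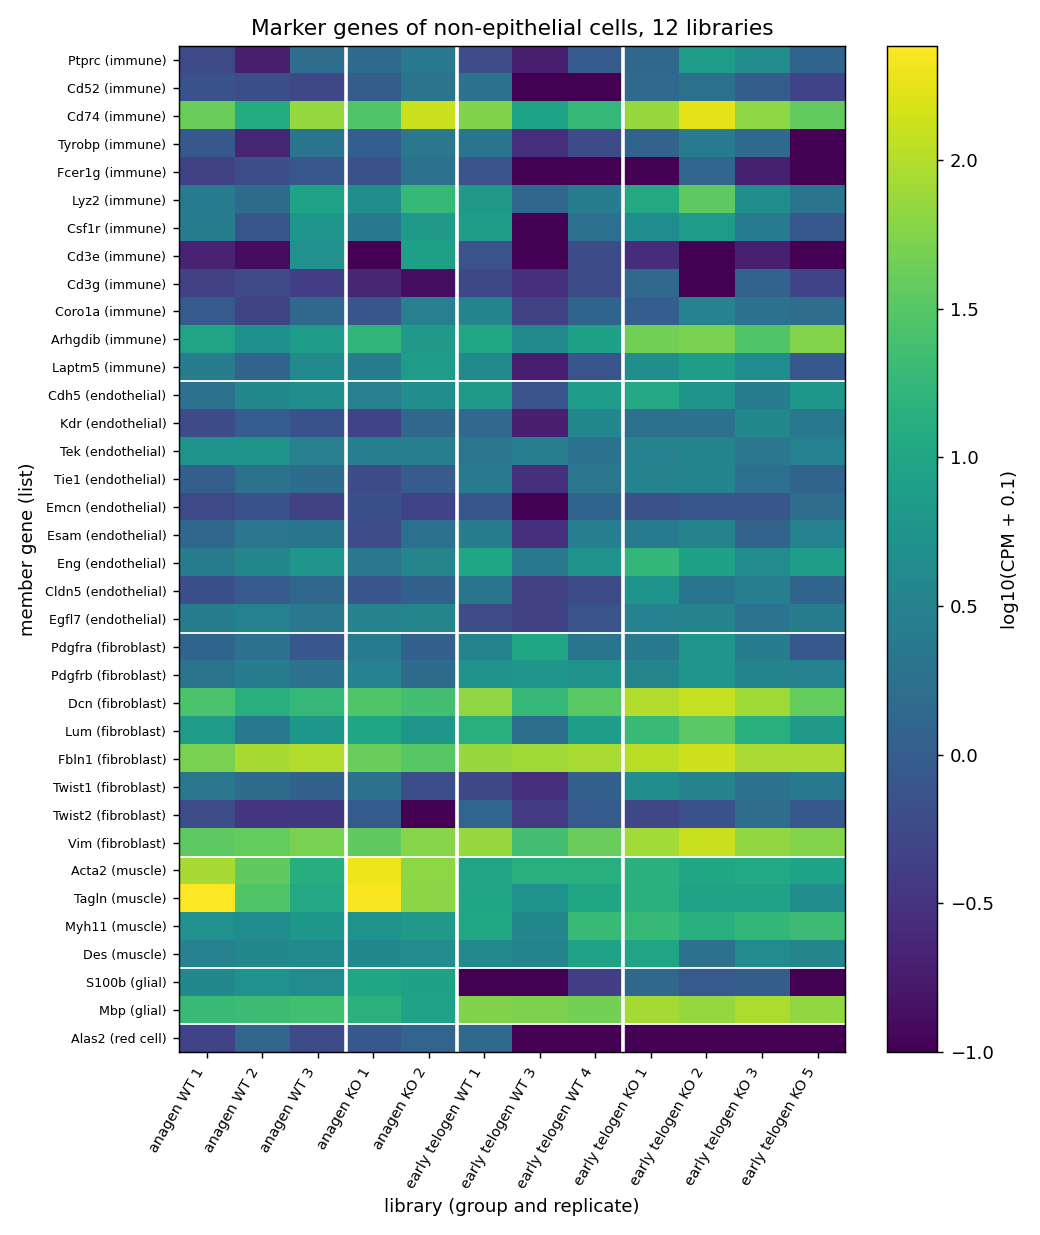
Each row is 1 of the 36 marker genes, with its list in brackets, and each column 1 of the 12 libraries; colour is log10 of CPM plus 0.1, and white lines separate groups and lists. Cd74, Fbln1, Dcn, Vim, Acta2, Tagln and Mbp carry most of the signal, and early telogen WT replicate 3 has the most genes at 0, 7 of the 36.

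Summed over each list, the ranges of KO and WT within a stage overlapped in most cases. The immune sum was 60.2 and 186 CPM in anagen KO, 61.3, 22.8 and 109 in anagen WT, 144, 291, 114 and 101 in early telogen KO and 93.1, 15.3 and 34.6 in early telogen WT. Every early telogen KO library was therefore above every early telogen WT library, but most of that sum was Cd74 and Arhgdib. Without these 2 genes the sum was 25.9, 64.8, 20.9 and 6.76 CPM in early telogen KO and 27.4, 2.13 and 8.32 CPM in early telogen WT, and the groups overlapped. The endothelial sum was 13.6 and 18.98 CPM in anagen KO and 16.1, 21.5 and 20.8 in anagen WT. In early telogen it was 47.6, 31.5, 20.7 and 28.2 CPM in KO and 28.1, 6.77 and 24.96 in WT, again with overlap. The fibroblast sum was 126 and 123 CPM in anagen KO, 126, 148 and 177 in anagen WT, 319, 434, 258 and 198 in early telogen KO and 235, 140 and 181 in early telogen WT. The muscle sum was widest, 435 and 138 CPM in anagen KO and 338, 73.3 and 33.9 in anagen WT. In early telogen it was narrow, 56.0, 34.6, 41.9 and 37.6 CPM in KO and 33.0, 25.4 and 51.2 in WT. The glial sum was 24.5 and 17.1 CPM in anagen KO and 23.3, 25.75 and 27.0 in anagen WT. In early telogen the glial sum, nearly all of it Mbp, was 85.3, 70.9, 93.7 and 69.1 CPM in KO and 55.0, 51.35 and 47.3 in WT, without overlap. Between stages, the ranges were apart for every list but the immune one in KO, and for the glial list alone in WT.

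**Figure D2:**
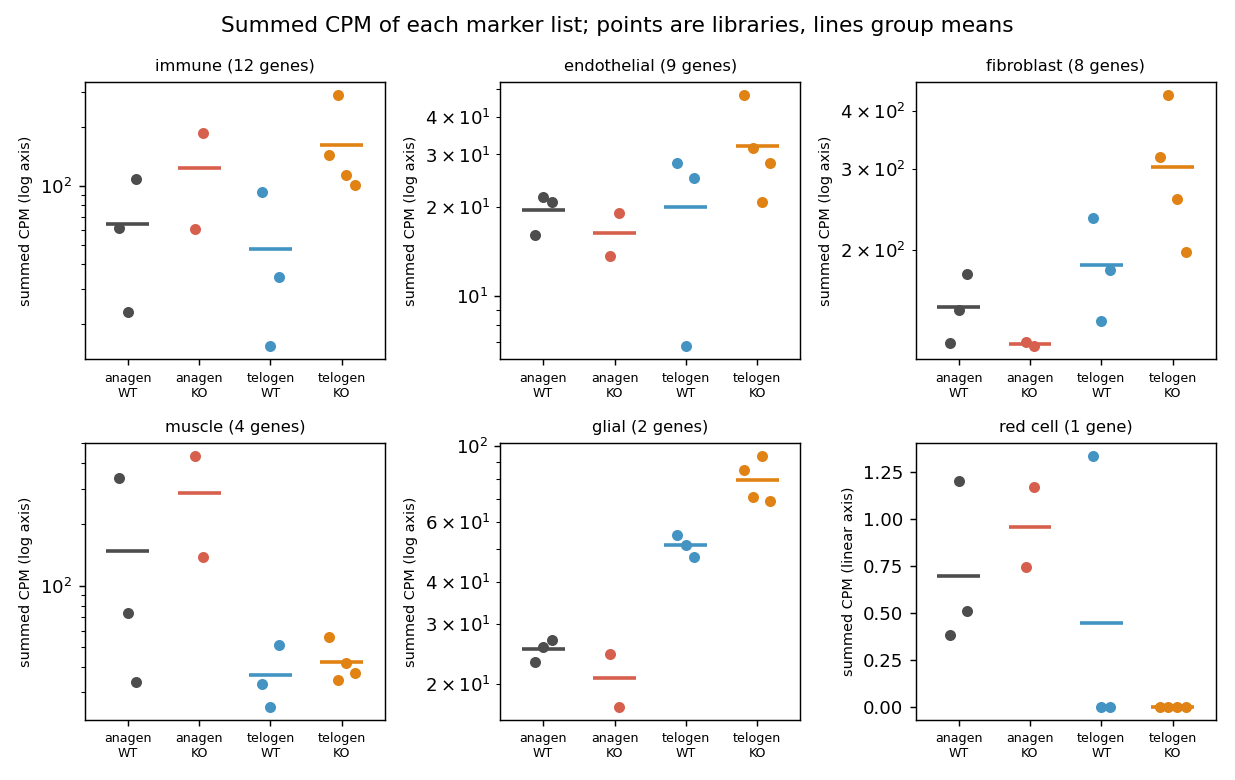
Summed CPM of each of the 6 marker lists (vertical axis, log scale except for the red cell panel) in the 4 groups; points are libraries and horizontal lines group means. The muscle sum spans 33.9 to 435 CPM in anagen and 25.4 to 56.0 CPM in early telogen, and early telogen WT replicate 3, at 6.77 CPM, lies below every other library in the endothelial panel.

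In early telogen, 1 marker gene was called between genotypes. It was Arhgdib, a GDP-dissociation inhibitor, which holds small GTPases in an inactive complex and is abundant in blood cells (ENSMUSG00000030220.13, chromosome 6 from 136923655 to 136941899, minus strand, mm10). Arhgdib was at 46.0, 50.3, 29.4 and 57.5 CPM in KO and 10.6, 4.08 and 8.48 CPM in WT. All 4 KO libraries were above all 3 WT libraries, and Arhgdib rose in KO, with 2.40 ± 0.31 as the log2 ratio of KO to WT (edgeR adjusted p = 0.00379). Of the 12030 genes tested, 0.499% rose and 0.457% fell at an adjusted p under 0.05, and of the 29 tested marker genes 1 rose and 0 fell. Leaving out KO replicate 2 and WT replicate 3 together left this ratio at 2.12 and the call in place (edgeR adjusted p = 0.00806). With the replicate number as a block the ratio was 2.35 and the call was lost (edgeR adjusted p = 0.0537). Only replicates 1 and 3 occur in both genotypes, so KO replicates 2 and 5 and WT replicate 4 added nothing to that ratio.

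The other immune genes had a different order of libraries from Arhgdib, although many of their levels rested on few counts. Of those shown here, Laptm5 and Coro1a were added after their values were seen. Ptprc was at 1.27, 7.29, 4.45 and 1.13 CPM in KO and 0.536, 0.0927 and 0.816 CPM in WT. The KO libraries were all above the WT libraries for Ptprc. KO replicate 5, which had the most Arhgdib, held 3 Ptprc counts, and the WT libraries held 6, 1 and 5. The log2 fold change of 2.77 ± 0.85 was not called (edgeR adjusted p = 0.169), whereas DESeq2 called it (adjusted p = 0.0457). Laptm5, a lysosomal membrane protein of blood cells, was at 4.57, 7.46, 4.35 and 0.751 CPM in KO and 3.93, 0.0927 and 0.652 CPM in WT. Its KO replicate 5, with 2 counts, lay below WT replicate 1. Coro1a, coronin 1A of the leukocyte actin cytoskeleton, was at 0.930, 3.11, 1.72 and 1.503 CPM in KO and 3.21, 0.371 and 1.14 CPM in WT, and WT replicate 1 was the highest of these 7 libraries. The log2 fold change was 1.31 ± 0.90 for Laptm5 and 0.04 ± 0.74 for Coro1a, and neither was called (edgeR adjusted p = 0.623 and 0.991). In anagen, Arhgdib was at 16.7 and 6.65 CPM in KO and 9.45, 4.93 and 7.19 CPM in WT. The anagen KO libraries lay on either side of the highest WT library, and the log2 fold change was 0.62 ± 0.45 (edgeR adjusted p = 0.705). The KO effects of the 2 stages differed by 1.76 ± 0.56 on the log2 scale, which was not called (edgeR adjusted p = 0.409). The exons of Arhgdib overlap those of Pde6h on the other strand, and Pde6h was at 0 in all 7 early telogen libraries.

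**Figure D3:**
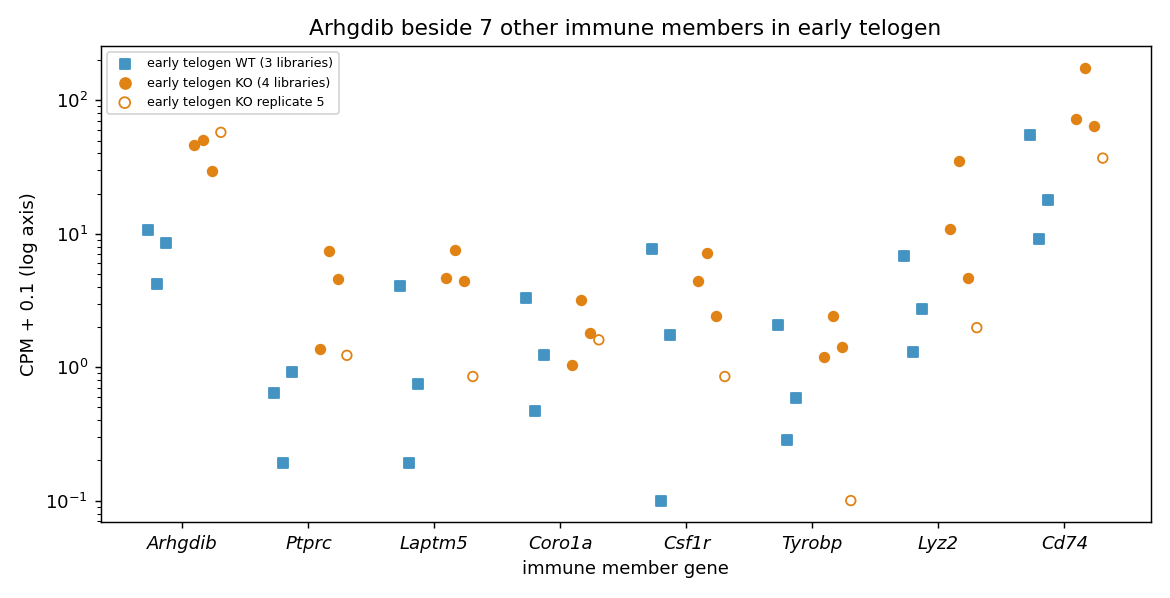
CPM plus 0.1 (log axis) of Arhgdib and 7 other immune marker genes in the 3 WT (squares) and 4 KO (circles) libraries of early telogen, with KO replicate 5 as an open circle. Arhgdib is at 29.4 to 57.5 CPM in KO and 4.08 to 10.6 CPM in WT, and KO replicate 5 is the highest library for Arhgdib. It is the lowest of the KO libraries for Ptprc, Laptm5, Csf1r, Tyrobp, Lyz2 and Cd74, and all of these but Cd74 had 0 to 5 counts in it.

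Of the remaining immune genes, Cd74, the invariant chain of class II antigen presentation, had the highest level. Cd74 was at 29.2 and 128 CPM in KO and 40.8, 12.3 and 71.3 CPM in WT in anagen and 71.9, 176, 63.9 and 36.8 CPM in KO and 55.1, 9.08 and 17.8 CPM in WT in early telogen. WT replicate 1 lay within the KO range in early telogen, and the log2 fold change of 1.48 ± 0.72 was not called (edgeR adjusted p = 0.498). Csf1r, the receptor of macrophage colony-stimulating factor that marks macrophages and Langerhans cells, was at 2.26 and 6.55 CPM in KO and 2.57, 0.709 and 5.97 CPM in WT in anagen and 4.31, 7.02, 2.32 and 0.751 CPM in KO and 7.59, 0 and 1.63 CPM in WT in early telogen. The highest early telogen level of Csf1r was in a WT library and so was the lowest, and the log2 fold change was 0.10 ± 1.10 (edgeR adjusted p = 0.985). Lyz2, Tyrobp, Cd52 and Fcer1g, which serve myeloid and other leukocytes, were at 0 to 34.7 CPM over the 12 libraries, and none was called between genotypes where it was tested. Of the immune genes tested, 9 of 9 were positive in early telogen KO, where their median log2 fold change was 1.31 against 0.03 over all genes, and 11 of 12 in anagen KO, with a median of 0.92 against 0.02. These counts rested on single libraries. Without early telogen KO replicate 2 and WT replicate 3, 5 of the 9 were positive with a median of 0.30, and Cd52, Coro1a, Csf1r and Tyrobp were negative. With 1 library left out, their median was 0.75 without WT replicate 3, 0.85 without KO replicate 2 (5 of 8 positive) and 2.54 without WT replicate 1. In anagen, 5 of 12 were positive without KO replicate 2, with a median of -0.07. The anagen median was 0.55 without WT replicate 2, 1.54 without KO replicate 1 and 0.33 with the title day as a block. Of 16 further genes of myeloid and Langerhans cells, 8 of 9 tested were positive in early telogen and 12 of 15 in anagen, and 0 were called.

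The T cell genes were near the limit of detection. Cd3g, a subunit of the T cell receptor complex and the immune gene with the lowest mean CPM, was at 0.129 and 0.0345 CPM in KO and 0.349, 0.463 and 0.319 CPM in WT in anagen and 1.35, 0, 1.11 and 0.376 CPM in KO and 0.446, 0.185 and 0.489 CPM in WT in early telogen. Its anagen KO libraries lay below the WT libraries, a difference of -2.19 ± 0.85 on the log2 scale (edgeR adjusted p = 0.451). Cd3e, another subunit of that complex, was at 0 and 8.20 CPM in KO and 0.110, 0.0308 and 5.02 CPM in WT in anagen. KO replicate 2 held 238 Cd3e counts and KO replicate 1 held 0, so the libraries of 1 group differed more than the groups did. Cd3e was at 0.169, 0, 0.101 and 0 CPM in KO and 0.625, 0 and 0.489 CPM in WT in early telogen, where it was too low to test, as were Cd3g and Fcer1g. Cd3d, the third CD3 subunit, was at 0.138 CPM in anagen KO replicate 2 and 0.0319 CPM in anagen WT replicate 3, the libraries where Cd3e was highest. The exons of Cd3e overlap an antisense gene, Gm48719, and without a stated strand setting the reads of the pair cannot be told apart. Most of the 5 further B cell genes, whose sum was 0 to 1.02 CPM, and of the 9 further T cell genes were too low to test. Between genotypes 1 B cell and 3 T cell genes were tested in anagen, 0 and 1 in early telogen, and 0 were called. Between stages, 2 of these T cell genes were called. Lck, a kinase of T cell receptor signalling, fell in WT (edgeR adjusted p = 0.0209), from 0.799 to 1.63 CPM in anagen to 0.179, 0 and 0 CPM in early telogen. Thy1, a surface protein that fibroblasts also carry, fell in KO by 1.10 on the log2 scale (SE 0.26, edgeR adjusted p = 0.0146).

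Within anagen, immune genes were highest in the libraries titled P31, in KO and in WT. Both libraries titled P31, KO replicate 2 and WT replicate 3, were above the other 3 anagen libraries for 9 of 12 immune genes: Ptprc, Cd74, Tyrobp, Fcer1g, Lyz2, Csf1r, Cd3e, Coro1a and Laptm5. Over all 14409 genes tested in anagen, 15.9% had this pattern. The same held for 12 of 15 further myeloid and Langerhans cell genes, among them H2-Aa, C1qa and Mrc1, and for Hbb-bs, a beta globin, at 7.48 and 6.90 CPM against 0.566 to 1.76 CPM. Among the other marker genes it held for 2 of 9 endothelial, 1 of 8 fibroblast and 2 of 4 muscle genes. This grouping was noticed in the data, and the age label of WT replicate 3 does not match its title.

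No marker gene was called between genotypes in anagen, where 0% of genes rose and 0% fell in edgeR. At an unadjusted p under 0.05 there were 1456 genes, among them 4 marker genes: Fbln1, S100b, Mbp and Cd3g. Marker genes without overlap between the genotypes numbered 3 with KO above WT (Cd52, Egfl7 and S100b) and 5 with KO below WT (Cd3g, Tek, Tie1, Fbln1 and Mbp), out of 36. The shares over all genes were 18.5% and 11.2%. In early telogen, 5 of 29 tested marker genes had KO above WT without overlap, namely Ptprc, Arhgdib, Egfl7, Twist1 and Mbp, and 0 had KO below WT, where the shares over all genes were 9.75% and 3.37%. The 7 genes too low to test in early telogen were Fcer1g, Cd3e, Cd3g, Emcn, Twist2, S100b and Alas2. Over the marker genes tested, 26 of 36 log2 fold changes were positive in anagen KO and 24 of 29 in early telogen KO. The median was 0.30 against 0.02 over all genes in anagen and 0.47 against 0.03 in early telogen. Neither median was stable to the choice of libraries. In anagen it was -0.02 without KO replicate 2, where 17 of 36 were positive, 0.16 without WT replicate 2 and 0.19 without KO replicate 1, and 0.13 with the title day as a block. With sex as a covariate the anagen median was 0.32, a fit that in effect sets the KO libraries, both labelled female, against WT replicate 1, the only female WT library. In early telogen it was 0.13 without WT replicate 3, where 19 of 32 tested genes were positive, and 1.09 without WT replicate 1, where 27 of 31 were. Without KO replicate 2 and WT replicate 3 together it was 0.19, again with 19 of 32 positive. The early telogen median was 0.55 without KO replicate 2 alone. It was 1.12 with the replicate number as a block, a fit that rests on replicates 1 and 3, which occur in both genotypes.

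**Figure D4:**
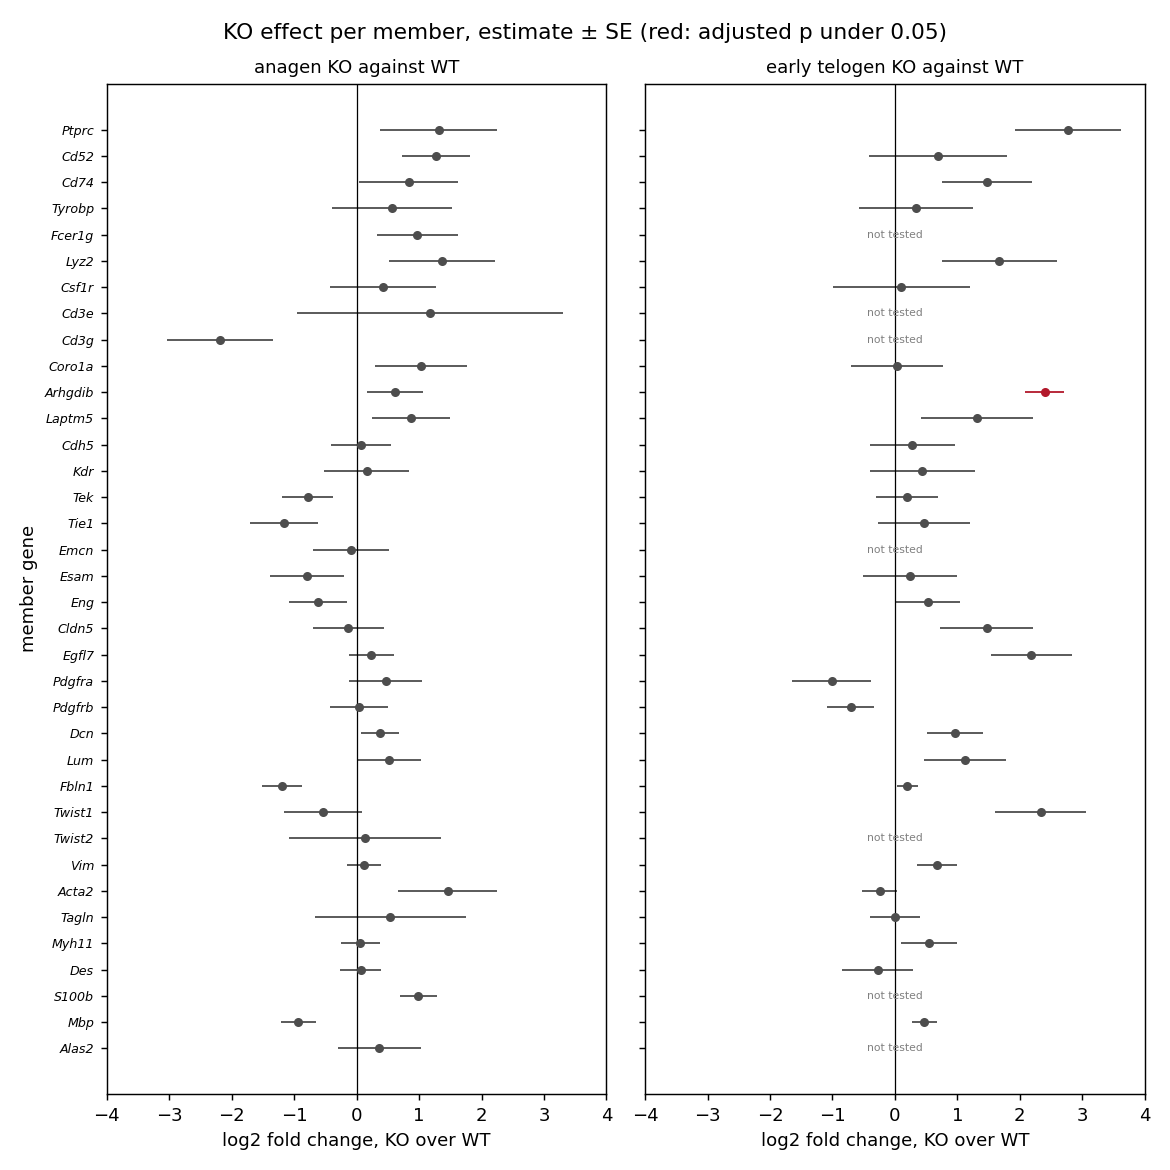
Log2 fold change of KO over WT (horizontal axis, point and SE bar) for each of the 36 marker genes in anagen (left) and early telogen (right), in red at an adjusted p under 0.05; 7 genes were not tested in early telogen. Arhgdib in early telogen, at 2.40, is the only red point, and in anagen 26 of 36 points lie right of 0.

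The endothelial genes were low in all groups. Eng, the TGF-beta co-receptor endoglin and the endothelial gene with the highest mean CPM, was at 2.11 and 3.34 CPM in KO and 2.59, 3.55 and 5.65 CPM in WT in anagen and 17.2, 8.53, 4.24 and 7.51 CPM in KO and 10.1, 2.22 and 5.38 CPM in WT in early telogen. Cdh5, vascular endothelial cadherin, was at 2.88 and 4.44 CPM in KO and 1.78, 3.61 and 4.47 CPM in WT in anagen and 11.1, 5.60, 2.53 and 6.01 CPM in KO and 6.61, 0.649 and 7.01 CPM in WT in early telogen. WT replicate 3 stood apart from the other 6 early telogen libraries for Cdh5. Tie1, a receptor kinase of vessels, was at 0.489 and 0.827 CPM in KO and 0.954, 1.73 and 1.47 CPM in WT in anagen and 3.13, 3.29, 1.62 and 1.13 CPM in KO and 2.32, 0.185 and 2.12 CPM in WT in early telogen. Emcn, the sialomucin endomucin and the lowest of the list, was at 0.566 and 0.379 CPM in KO and 0.459, 0.617 and 0.351 CPM in WT in anagen and 0.592, 0.711, 0.707 and 1.503 CPM in KO and 0.714, 0 and 1.14 CPM in WT in early telogen. Early telogen WT replicate 3 was the lowest of its stage for 8 of the 9 endothelial genes, and Tek, the angiopoietin receptor, was the exception. Of 29 tested marker genes in early telogen, the 8 endothelial ones were all positive, with a median log2 fold change of 0.45, and 0 were called in edgeR or DESeq2; Egfl7 alone had an unadjusted p under 0.05. Without WT replicate 3, 4 of these 8 were positive, with a median of 0.04. Without KO replicate 2 as well, 5 of 8 were positive, with a median of 0.15, and Cdh5, Tie1 and Esam were negative. The median was 0.26 without KO replicate 1, 0.71 without WT replicate 4 and 0.75 without WT replicate 1. In anagen 3 of 9 were positive, with a median of -0.13, which became -0.17 (without WT replicate 2) to -0.78 (without KO replicate 2) when 1 library was left out. Of 15 further endothelial genes, 0 were called between genotypes and 3 between stages. Vwf, the von Willebrand factor, rose in WT by 1.87 ± 0.58 (edgeR adjusted p = 0.0370) and in KO by 2.28 ± 0.69 (edgeR adjusted p = 0.0375) on the log2 scale. Flt1, a receptor of vascular endothelial growth factor, and Pecam1, the junction protein CD31, rose in KO by 2.49 ± 0.57 (edgeR adjusted p = 0.0116) and 1.86 ± 0.45 (edgeR adjusted p = 0.0155).

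Egfl7, a secreted protein of endothelial cells, was called between stages in WT. Egfl7 was at 3.14 and 3.34 CPM in KO and 2.62, 2.96 and 2.17 CPM in WT in anagen and 3.05, 3.20, 1.82 and 2.63 CPM in KO and 0.536, 0.371 and 0.652 CPM in WT in early telogen. The 3 early telogen WT libraries were below the 4 KO libraries and below all 5 anagen libraries. The log2 fold change of KO over WT in early telogen was 2.18 ± 0.65, which was not called (edgeR adjusted p = 0.154). Between stages Egfl7 fell in WT by 2.26 on the log2 scale (SE 0.56, edgeR adjusted p = 0.0153), whereas in KO the stage difference was -0.30 ± 0.49 (edgeR adjusted p = 0.694). Leaving out anagen WT replicate 2 gave an edgeR adjusted p of 0.0511 in WT. The genotype effects of the 2 stages differed by 1.94 ± 0.67 (edgeR adjusted p = 0.480), so a difference between KO and WT in this pattern was not called. Exons of Egfl7 overlap those of Agpat2 on the other strand, which was at 7.44 to 10.8 CPM over the 4 groups.

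Fibroblast genes were led by Fbln1, the extracellular matrix protein fibulin 1. Fbln1 was at 42.1 and 31.8 CPM in KO and 51.0, 88.3 and 98.4 CPM in WT in anagen and 107, 139, 89.5 and 89.0 CPM in KO and 72.6, 80.4 and 90.2 CPM in WT in early telogen. Both anagen KO libraries were below the 3 anagen WT libraries, with a log2 fold change of -1.19 ± 0.32 that was not called in edgeR (adjusted p = 0.282). DESeq2 called it (adjusted p = 0.0337), as did edgeR with no filter on low counts (adjusted p = 0.0148) and in a fit of all 12 libraries (adjusted p = 0.0480). With sex as a covariate the log2 fold change was -0.54. Both KO libraries are labelled female, so that fit sets them against WT replicate 1, the only female WT library and the lowest of the 3 for Fbln1. It cannot tell an effect of sex from that library. Dcn, decorin, a proteoglycan that binds collagen, was at 29.3 and 23.5 CPM in KO and 26.4, 13.1 and 18.1 CPM in WT in anagen and 99.9, 123, 78.5 and 38.7 CPM in KO and 66.1, 18.1 and 33.3 CPM in WT in early telogen. Lum, lumican, a related proteoglycan, was at 10.1 and 6.06 CPM in KO and 7.29, 2.25 and 6.32 CPM in WT in anagen and 19.2, 32.9, 13.7 and 6.39 CPM in KO and 12.9, 1.58 and 7.83 CPM in WT in early telogen. For both proteoglycans KO replicate 2 was the highest and WT replicate 3 the lowest of the early telogen libraries, and neither was called (edgeR adjusted p = 0.453 for Dcn and 0.556 for Lum).

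The platelet-derived growth factor receptors, which fibroblasts (Pdgfra) and pericytes (Pdgfrb) use to respond to that growth factor, had negative log2 fold changes in early telogen KO. Pdgfra was at 2.49 and 1.03 CPM in KO and 1.12, 1.76 and 0.735 CPM in WT in anagen and 2.20, 5.86, 2.53 and 0.751 CPM in KO and 3.21, 9.83 and 1.96 CPM in WT in early telogen. WT replicate 3, the lowest early telogen library for Dcn and Lum, was the highest for Pdgfra. Pdgfrb was at 3.01 and 1.48 CPM in KO and 1.89, 2.50 and 1.79 CPM in WT in anagen and 3.38, 5.77, 3.23 and 3.01 CPM in KO and 5.45, 5.84 and 5.38 CPM in WT in early telogen. The log2 fold change of KO over WT in early telogen was -1.01 ± 0.63 for Pdgfra and -0.71 ± 0.37 for Pdgfrb, and neither was called (edgeR adjusted p = 0.568 and 0.480). Twist1, a transcription factor of dermal mesenchyme, was at 4.40, 3.20, 1.72 and 2.25 CPM in KO and 0.446, 0.185 and 0.979 CPM in WT in early telogen, with all KO libraries above all WT libraries and 2.34 ± 0.73 as the log2 fold change (edgeR adjusted p = 0.176). Its paralogue Twist2, the lowest of the list, was at 0.797 and 0 CPM in KO and 0.532, 0.247 and 0.256 CPM in WT in anagen and 0.423, 0.622, 1.52 and 0.751 CPM in KO and 1.16, 0.278 and 0.816 CPM in WT in early telogen. Vim, the intermediate filament vimentin, was at 23.8 to 124 CPM over the 12 libraries and was not called between genotypes.

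Among 17 further fibroblast genes, Col1a1, a chain of type I collagen, was at 2097 CPM in early telogen KO replicate 2 and at 98.7 to 583 CPM in the other early telogen libraries. In that library Ly6a was also highest. The part of that library and of WT replicate 3 in the differences between genotypes was not tested beyond leaving them out. Leaving out both kept the call of Arhgdib and lowered the medians of the immune genes, of the endothelial genes and of all marker genes, as given above. The median of all marker genes, 0.47 with all libraries, was 0.55 without KO replicate 2 alone and 0.13 without WT replicate 3 alone. Of the further fibroblast genes 13 were tested in early telogen and 0 were called.

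More marker genes were called between stages than between genotypes. Stage coincided with the count table and with depth, so stage, table and any difference in how the tables were made cannot be told apart. In WT, 3 of 35 tested marker genes rose from anagen to early telogen (Mbp, Pdgfrb and Pdgfra) and 2 fell (S100b and Egfl7). Over all genes tested, 13.6% rose and 15.9% fell. In KO, 6 of 32 rose (Mbp, Fbln1, Arhgdib, Myh11, Dcn and Eng) and 3 fell (Acta2, Tagln and S100b), where 10.2% of all genes rose and 12% fell. Mbp and S100b were called in both genotypes and kept their calls under all 10 alternatives of each comparison.

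Acta2, smooth muscle alpha-actin, and Tagln, the actin-binding protein transgelin or SM22, are early markers of smooth muscle and of contractile fibroblasts. Acta2 (ENSMUSG00000035783.9, chromosome 19 from 34241090 to 34255590, minus strand) was at 201 and 64.7 CPM in KO and 87.5, 36.5 and 12.6 CPM in WT in anagen and 14.0, 9.95, 11.6 and 9.02 CPM in KO and 9.28, 13.3 and 13.0 CPM in WT in early telogen. Tagln (ENSMUSG00000032085.5, chromosome 9 from 45929619 to 45936058, minus strand) was at 225 and 62.5 CPM in KO and 242, 28.7 and 11.1 CPM in WT in anagen and 14.0, 8.71, 8.69 and 4.51 CPM in KO and 9.73, 5.28 and 9.79 CPM in WT in early telogen. Both genes were highest in the libraries titled P29, KO replicate 1 and WT replicate 1, and anagen WT replicate 3 was within the early telogen range. From anagen to early telogen in KO, Acta2 fell by 3.55 on the log2 scale (SE 0.39, edgeR adjusted p = 0.000277) and Tagln fell by 3.95 (SE 0.49, edgeR adjusted p = 0.000909). In WT the log2 fold changes were -1.85 ± 0.69 and -3.44 ± 1.36 and were not called (edgeR adjusted p = 0.0928 and 0.128). In a fit of all 12 libraries both were called in WT (edgeR adjusted p = 0.0465 and 0.0368). DESeq2 called Tagln in WT (adjusted p = 0.0152), and edgeR called Acta2 with anagen WT replicate 3 left out (adjusted p = 0.00723). The difference between the genotypes was not called for either gene, at -1.72 ± 0.85 for Acta2 (edgeR adjusted p = 0.808) and -0.54 ± 1.40 for Tagln (edgeR adjusted p = 0.991).

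The other muscle genes did not fall. Myh11, the myosin heavy chain of differentiated smooth muscle, was at 5.20 and 6.44 CPM in KO and 5.10, 4.38 and 6.26 CPM in WT in anagen and 18.6, 14.1, 17.4 and 20.7 CPM in KO and 10.2, 3.62 and 19.6 CPM in WT in early telogen. Myh11 rose in KO from anagen to early telogen with 1.61 ± 0.34 as the log2 ratio of the stages (edgeR adjusted p = 0.00819), a call that was lost without anagen KO replicate 1 (edgeR adjusted p = 0.0641). In WT the log2 ratio was 1.14 ± 0.51 (edgeR adjusted p = 0.123), which was called by DESeq2 (adjusted p = 0.0483) and by edgeR without early telogen WT replicate 3 (adjusted p = 0.0227). Des, the muscle intermediate filament desmin, was at 3.76 and 4.13 CPM in KO and 3.07, 3.64 and 3.93 CPM in WT in anagen and 9.30, 1.78, 4.24 and 3.38 CPM in KO and 3.84, 3.24 and 8.81 CPM in WT in early telogen. Des was called in none of the 5 comparisons. Of 10 further smooth muscle and pericyte genes, Myl9, the regulatory light chain of myosin in contractile cells, had the course of Acta2, at 115 and 49.6 CPM in anagen KO, 74.9, 32.0 and 16.3 in anagen WT and 4.36 to 12.9 in early telogen. Myl9 fell between stages by 3.06 in KO (SE 0.33, edgeR adjusted p = 0.000164) and by 2.18 in WT (SE 0.64, edgeR adjusted p = 0.0450) on the log2 scale. Cnn1, calponin 1, was at 6.40 to 22.5 CPM over the 12 libraries and was not called. The sum of 10 skeletal muscle genes was 0 to 3.34 CPM.

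Acta2, Tagln and Myl9 are textbook targets of serum response factor, which binds the CArG box, so promoters were searched for it where a sequence was available. The strict box is CC, 6 bases of A or T, and GG, and reads the same on both strands. A looser form allowed 1 of the 6 inner bases to be C or G, a choice made after the strict search. The RefSeq promoter table (GRCm38.p6) held 24 of the 36 marker genes, 2 of them muscle genes (Acta2 and Des), and Myl9. Tagln and Myh11 were not in it, so their promoters were not searched. In the 250 bases before the RefSeq start, Acta2 had 0 strict and 2 loose boxes, Myl9 had 2 loose boxes of which 1 was strict, and Des had 0 of either. Of 32851 windows of that length, 1.47% held a strict box, 8.59% at least 1 loose box and 0.670% at least 2. The strict box was found in 0 of the 24 marker genes and the loose box in 6. The stretches of 30 bases around each match in Acta2 and Myl9 are shown 5′ to 3′ on the gene's strand, with the box in capitals. These 2 genes were picked because they had the same course over the stages. The other marker genes with a loose box are not shown, and a link between the box and that course was not tested.
Acta2, chr19:34255438-34255467, box from 84 bases before the start: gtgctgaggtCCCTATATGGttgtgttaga
Acta2, chr19:34255388-34255417, box from 34 bases before the start: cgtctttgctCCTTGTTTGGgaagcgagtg
Myl9, chr2:156775293-156775322, box from 161 bases before the start: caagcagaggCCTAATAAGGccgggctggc
Myl9, chr2:156775355-156775384, box from 99 bases before the start: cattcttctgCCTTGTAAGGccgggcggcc
GENCODE M21 starts Acta2 further upstream than RefSeq, so both Acta2 stretches lie in its first exon there. A match describes these letters and no binding.

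The 2 glial genes moved in opposite directions. S100b, a calcium-binding protein of Schwann cells and other glia that is also made by some non-glial cells (ENSMUSG00000033208.7, chromosome 10 from 76253853 to 76261159, plus strand), was at 9.80 and 8.44 CPM in KO and 3.67, 5.03 and 4.25 CPM in WT in anagen and 1.27, 0.800, 0.910 and 0 CPM in KO and 0, 0 and 0.326 CPM in WT in early telogen. The early telogen WT libraries held 2 S100b counts in all, and the pooled level was 59.0 times as high in anagen WT (95% exact counting interval 16.3 to 489). S100b fell between stages in WT (edgeR adjusted p = 0.00316), and in KO it fell by 3.42 on the log2 scale (SE 0.59, edgeR adjusted p = 0.00280). In anagen both KO libraries were above the 3 WT libraries, with a log2 fold change of 0.99 ± 0.30 that was not called (edgeR adjusted p = 0.326).

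Mbp, which encodes myelin basic protein and, from an upstream start, the Golli proteins that are made outside myelin (ENSMUSG00000041607.17, chromosome 18 from 82475146 to 82585637, plus strand), was at 14.7 and 8.68 CPM in KO and 19.6, 20.7 and 22.8 CPM in WT in anagen and 84.0, 70.1, 92.8 and 69.1 CPM in KO and 55.0, 51.4 and 47.0 CPM in WT in early telogen. All early telogen libraries were above all anagen libraries. Mbp rose between stages by 1.37 ± 0.17 in WT (edgeR adjusted p = 0.00118) and by 2.77 ± 0.33 in KO (edgeR adjusted p = 0.000291) on the log2 scale. The genotype order reversed between stages: KO was below WT in anagen, with -0.93 ± 0.28 as the log2 fold change (edgeR adjusted p = 0.328), and above WT in early telogen, with 0.47 ± 0.20 (edgeR adjusted p = 0.346). The difference of 1.39 ± 0.33 between these effects was not called in edgeR (adjusted p = 0.198) and was called by DESeq2 (adjusted p = 0.0247). Sox10, the transcription factor of Schwann cells and melanocytes, was at 0 to 2.22 CPM, was not called between stages in WT (edgeR adjusted p = 0.119) and was too low to test in KO. Of 9 further Schwann cell genes, Ngfr, a neurotrophin receptor, and Egr2, a transcription factor of myelination, fell between stages in both genotypes, by 1.91 (edgeR adjusted p = 0.00137) and 0.97 (edgeR adjusted p = 0.00712) in WT. Counts per gene do not separate the transcripts of Mbp.

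**Figure D5:**
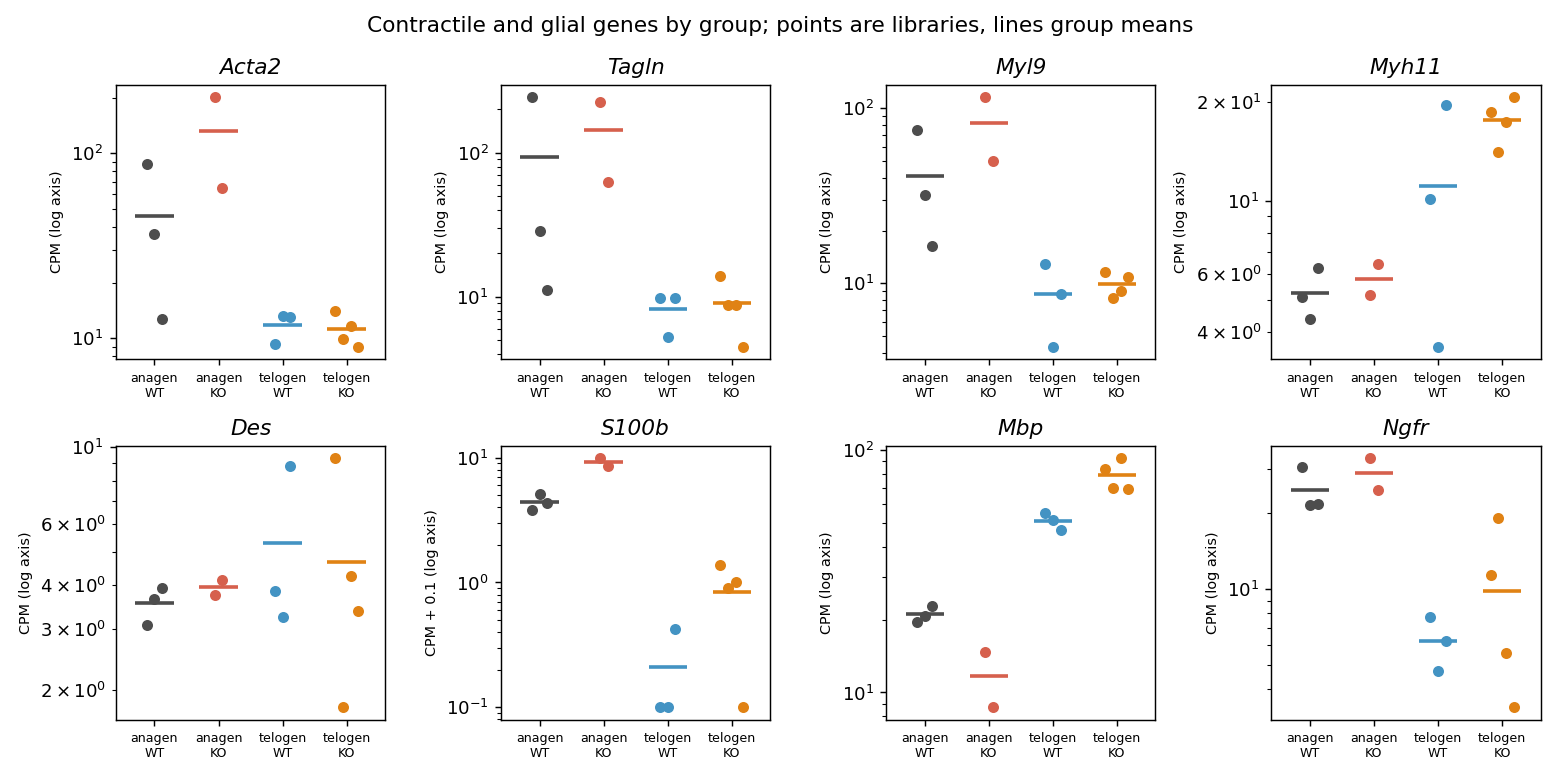
CPM (log axis, CPM plus 0.1 for S100b) of 6 marker genes, Acta2, Tagln, Myh11, Des, S100b and Mbp, and of Myl9 and Ngfr, by group; points are libraries and lines group means. Acta2, Tagln and Myl9 are high and spread in anagen and low in early telogen, Mbp lies at 8.68 to 22.8 CPM in anagen and 47.0 to 92.8 CPM in early telogen, and S100b has the opposite order.

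Fibroblast genes were also called between stages. In WT, Pdgfrb rose by 1.52 ± 0.38 (edgeR adjusted p = 0.0153) and Pdgfra by 2.18 ± 0.67 (edgeR adjusted p = 0.0362) on the log2 scale. The log2 fold change of Pdgfra fell to 1.13 without early telogen WT replicate 3, and its call was lost (edgeR adjusted p = 0.198). Without any 1 of the 3 anagen WT libraries it was 1.95 to 2.57, and the call was lost as well (edgeR adjusted p = 0.0516 to 0.0929). The call of Pdgfrb was lost without early telogen WT replicate 4 (edgeR adjusted p = 0.0501). In KO, Fbln1 rose by 1.504 ± 0.24 (edgeR adjusted p = 0.00182) and Dcn by 1.67 ± 0.36 (edgeR adjusted p = 0.00951). The call of Dcn was lost without anagen KO replicate 2 (edgeR adjusted p = 0.0753). In WT the log2 fold change of Dcn was 1.09 ± 0.45 (edgeR adjusted p = 0.112), which was called by DESeq2 (adjusted p = 0.0195) and by edgeR without early telogen WT replicate 3 (adjusted p = 0.0351). Fbln1 in WT changed by 0.12 ± 0.24 between stages (edgeR adjusted p = 0.736). All 7 fibroblast genes tested in KO were positive, and their median log2 fold change was 1.14 against -0.03 over all genes, and 7 of 8 were in WT, with a median of 0.82 against -0.10. When 1 library was left out, the KO median was 0.73 (without anagen KO replicate 2) to 1.62 (without anagen KO replicate 1), and every tested gene of the list was positive. The WT median was 0.23 without anagen WT replicate 2 and 0.39 without early telogen WT replicate 1. Among the further fibroblast genes, Col6a1 and Col6a2, chains of type VI collagen, rose in both genotypes. Col6a1 was at 15.6 and 10.3 CPM in KO and 120, 252 and 155 CPM in WT in anagen, and at 165 to 265 CPM in KO and 255 to 407 CPM in WT in early telogen. The anagen KO libraries were far below all others. The log2 fold change of KO over WT for Col6a1 was -3.855 ± 0.43 in anagen and -0.67 ± 0.25 in early telogen. The KO effect was thus less negative in early telogen, and the difference of 3.17 ± 0.48 was called (edgeR adjusted p = 0.0229). Col6a2 was at 13.2 and 14.5 CPM in anagen KO, 41.3 to 67.0 CPM in anagen WT and 82.3 to 152 CPM in early telogen. Lox, an enzyme that cross-links collagen, rose in WT, with 3.55 ± 1.07 as the log2 ratio of the stages (edgeR adjusted p = 0.0468), and early telogen WT replicate 3, at 22.5 CPM, was its highest library, against 1.96 and 2.23 CPM in the other early telogen WT libraries. Corin, a protease of the dermal papilla and the only call among 8 genes of that structure, fell in KO (edgeR adjusted p = 0.0124), from 1.18 and 1.41 CPM to 0 to 0.101 CPM. In WT, Corin was at 1.89, 6.01 and 0.383 CPM in anagen and 0 in every early telogen library, and it was not tested there. Eng rose in KO by 1.77 ± 0.55 (edgeR adjusted p = 0.0426), and this call was lost under 4 of 10 alternatives (edgeR adjusted p up to 0.201). Arhgdib rose between stages in KO by 1.94 ± 0.39 (edgeR adjusted p = 0.00654), and the value in WT was 0.17 ± 0.38 (edgeR adjusted p = 0.766).

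The test of whether the KO effect differed between stages called 0 of 36 marker genes. Of 13193 genes, 0.129% were called with a more positive KO effect in early telogen than in anagen and 0.0152% with a more negative one. At an unadjusted p under 0.05 there were 841 of the 13193 genes, among them 6 of the 36 marker genes: Fbln1, Mbp, Arhgdib, Egfl7, Twist1 and Alas2. All 9 endothelial genes had a more positive KO effect in early telogen than in anagen, with a median difference of 1.01 against 0.04 over all genes, and none was called. More positive does not mean larger in size: for Tie1 the log2 fold change was -1.17 in anagen and 0.47 in early telogen. Without early telogen WT replicate 3, 6 of the 9 were positive with a median of 0.74, and Cdh5, Emcn and Kdr were negative. Over all 36 marker genes the median difference was 0.448, with 23 positive. It was -0.03 without early telogen WT replicate 3, 0.92 without anagen KO replicate 2 and 1.24 without early telogen WT replicate 1. For Fbln1 the difference was 1.37 ± 0.35 (edgeR adjusted p = 0.223), which was called by DESeq2 (adjusted p = 0.0342) and by edgeR without anagen WT replicate 1 (adjusted p = 0.0234).

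Alas2, the erythroid enzyme that starts haem synthesis and the single red cell gene, was at 0.746 and 1.17 CPM in KO and 0.385, 1.20 and 0.511 CPM in WT in anagen. In early telogen it was at 1.34 CPM in WT replicate 1 (15 counts) and 0 in the other 6 libraries, where 3 counts over the 4 KO libraries would be 0.0842 CPM. Its exons overlap those of Apex2 on the other strand, which was at 3.80 to 15.7 CPM, and reads of the pair cannot be told apart. The globin genes Hba-a1 and Hbb-bs were at 0.376 to 3.58 and 0 to 7.48 CPM.

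Of the 36 marker genes, 13 have exons that overlap those of another gene in GENCODE M21, most of them on the other strand. The libraries were made with a directional kit, and the strand setting of the counting is not given in the sources used here. Of the genes called in any comparison these were Arhgdib, Egfl7, Eng, Pdgfra and Tagln. For Tagln the partner Pcsk7 was at 16.0 to 33.8 CPM, and for Eng the partner Fpgs was at 26.6 to 71.1 CPM.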

How the data were processed

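RNA of sorted hair follicle stem cells from mouse back skin was sequenced in 12 libraries, 1 count table per stage. The authors deposited raw counts of reads per gene. Per the submitters' processing notes, TopHat2, HTSeq and the mouse build mm10 were used; versions and the strand setting are not given in the sources used here. Oligo(dT)-selected RNA and a directional library kit are named in the labels' protocols. The early telogen table had 3 broken lines, which were left out, and 27 gene names turned into dates. The anagen table held 38803 genes, that of early telogen 37958, and 872 names were in the anagen table alone, so comparisons between stages used the 37931 shared names.

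Samples were grouped by the genotype label and the stage of the table that held them. The marker genes, the other gene lists and the tests were chosen with earlier results of these data known. Genotypes were compared within a table, stages within a genotype, and the difference of the genotype effect as a contrast of the 4 group means. The test was that of edgeR 4.0.16, run in R 4.3.3 (TMM, filterByExpr with a minimum count of 10 and a minimum total of 15, robust quasi-likelihood F-tests, Benjamini-Hochberg adjustment over all genes tested); a gene was called, or said to have risen or fallen, at an adjusted p under 0.05. The script was tested on simulated data. DESeq2 1.42.0, other size factors, no filter, a fit of all libraries, sex and replicate blocks and leaving out libraries were tried as alternatives.

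CPM was computed over gene rows. Levels per kilobase used the union of exons in GENCODE M21. Intervals and floors (3 counts, 95% exact intervals) take in the error of counting and nothing else, as there were no molecular identifiers. Values in every library are given for marker genes called in any comparison, for the defining genes of each cell type and for the highest and lowest of each list; Laptm5 and Coro1a were added after their values were seen. Of the lists of other cell types, called genes are named, at most 4 per list, Cd34 and Itga6 are given as genes of the gate, and Cd3d, Col1a1, Hba-a1, Hbb-bs, Sox10, Cnn1, H2-Aa, C1qa and Mrc1 were named after their values were seen. Gene positions are from GENCODE M21 (GRCm38, the same build as mm10), and promoter sequences are from RefSeq (GRCm38.p6).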

Additional observations from a re-analysis of the deposited data

Results flagged for a closer look

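Of 41 values tested within the 4 early telogen KO libraries (36 genes and 5 list sums), 3 had a library whose distance to the nearest other, as a share of the group's range, passed Dixon's critical value of 0.829; chance alone flags about 1 in 20. Fcer1g, the common Fc receptor gamma chain of myeloid and mast cells, was at 1.16 CPM in KO replicate 2 and at 0 to 0.101 CPM in the others. Pdgfrb was at 5.78 CPM in KO replicate 2 against 3.005 to 3.38 CPM in the others. Emcn was at 1.503 CPM in KO replicate 5 against 0.592 to 0.711 CPM; that library was the shallowest, and 3 of its counts are 1.13 CPM.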

How the results depend on the processing

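The call of Arhgdib in early telogen held under 12 of 13 alternatives (edgeR or DESeq2 adjusted p from 1.35e-10) and was lost with a replicate block (edgeR adjusted p = 0.0537). The labels do not say that a replicate number or a title day pairs samples. In anagen, deviations of libraries with the same title day correlated at 0.414 and 0.358. The deviations of the 2 anagen KO libraries mirror each other, and KO replicate 2 with WT replicate 1 gave -0.414. In early telogen, libraries with the same replicate number correlated at 0.107 and 0.051. The replicate block lowered the early telogen calls over all genes from 115 to 11, with 0 marker genes. That block compares genotypes within replicates 1 and 3 alone, so the lower number also reflects the libraries it leaves without a partner. The title day as a replicate block raised the anagen calls from 0 to 253, with 0 marker genes, and left WT replicate 2 without a partner. Over all comparisons, 13 of 153 repeats of a called marker gene lost the call, and 0 changed sign.

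In anagen, 306 genes were called with no filter, 500 by DESeq2, 154 in the fit of all 12 libraries and 1 with sex as a covariate. Each of the first 3 called 1 marker gene, Fbln1. Leaving out 1 library gave 0 to 95 calls, the highest without WT replicate 1, and 1 without WT replicate 2. In early telogen, 338 genes were called with no filter and 399 by DESeq2, each with 2 marker genes (Arhgdib and Ptprc), 39 in the fit of all 12 libraries and 47 without both KO replicate 2 and WT replicate 3. Leaving out 1 library gave 19 (without WT replicate 3) to 131 calls, and 47, 24, 75 and 44 without KO replicate 1, KO replicate 5, WT replicate 1 and WT replicate 4.

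Between stages in WT, DESeq2 called 8 marker genes, and leaving out 1 library gave 3 (without anagen WT replicate 2) to 6. Calls over all genes were 2312 to 3329 when 1 library was left out, against 3748, with the lowest values without early telogen WT replicates 3 and 4. Between stages in KO they were 1382 to 3640, against 2835, with the lowest values without anagen KO replicate 2 and replicate 1 (1614). Some alternatives also called Alas2, Cd3e, Cd3g or Lum between stages in KO. For the difference between stages, against 19 calls, no filter gave 409 with 4 marker genes (Acta2, Arhgdib, Fbln1 and Mbp) and DESeq2 148 with 2 (Fbln1 and Mbp). Leaving out 1 library gave 0 (without anagen KO replicate 2) to 55 calls (without anagen WT replicate 1), with 0 to 1 marker genes, and 1, 8, 7, 7, 2 and 3 without anagen KO replicate 1, early telogen KO replicates 3 and 5 and WT replicates 1, 3 and 4. With the total over genes named in both tables, the fibroblast sum in anagen KO was 129 CPM, against 125. The causes were not tested.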

Other observations

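Among lists of other cell types that the marker genes do not cover, melanocyte genes held 1 call between genotypes. Dct, dopachrome tautomerase of the melanin pathway, was at 17.9, 8.35, 7.58 and 10.1 CPM in early telogen KO (replicates 1, 2, 3 and 5) and at 2.05, 2.32 and 1.31 CPM in WT (replicates 1, 3 and 4). The groups did not overlap, and Dct rose in KO, with 2.34 ± 0.43 as the log2 ratio of KO to WT (edgeR adjusted p = 0.0274). It was the only call among the 4 melanocyte genes tested there. In WT, the log2 ratio of early telogen to anagen was -4.17 for Dct (edgeR adjusted p = 0.00837), which fell, as did Tyr, tyrosinase (edgeR adjusted p = 0.00130), and Tyrp1, another enzyme of the pathway (edgeR adjusted p = 0.0461). Mitf, the melanocyte transcription factor that other cells also make, rose between stages by 2.06 in WT (edgeR adjusted p = 0.0337) and 4.42 in KO (edgeR adjusted p = 1.69e-05).

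The 5 Merkel cell genes measured in both tables summed to 0.0184 to 0.241 CPM in anagen and to 0 in all 7 early telogen libraries. The 7 mast cell genes summed to 0.742 to 24.8 CPM, highest in early telogen KO replicate 1, and the 8 dermal papilla genes to 9.55 to 39.3 CPM. Of the 7 mast cell genes 3 to 5 were tested in each comparison, and none was called.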
